A study of Mus musculus with 10 samples.

Results

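The genes followed here are 10 regulators of spermatogonial stem and progenitor cells, Zbtb16, Id4, Nanos2, Nanos3, Sall4, Lin28a, Etv5, Foxo1, Dazl and Rhox13, taken by gene symbol from RNA-seq tables of the mouse testis. They were chosen by name and role, with earlier results of these data known, and all 10 were found among the 17816 genes of the day 7 table and the 20007 genes of the adult table. The day 7 table holds Sertoli cells isolated 7 days after birth, in 2 samples from Rnf20 Flox/Flox mice, which the labels call WT, and 2 samples from Amh-Rnf20-/- mice. In the Amh-Rnf20-/- mice the floxed part of Rnf20 is excised by a CRE driven by the promoter of Amh, a gene of Sertoli cells, and the germ cells themselves keep the gene. These cells were digested from whole tubules, filtered and passaged as adherent cells, with no sort for a cell type. The adult table holds whole testis, in 3 samples labelled WT and 3 labelled RNF20 conditional knockout, whose exact age and alleles the labels do not give. Control and knockout below mean the samples so labelled in either table. RNF20 is the ubiquitin ligase that adds a single ubiquitin to histone H2B.

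Spermatogonial stem cells lie on the wall of the seminiferous tubule beside Sertoli cells, and they either renew or become progenitors that divide in chains, commit to differentiate under retinoic acid and enter meiosis. Zbtb16, also called PLZF, and Sall4 encode zinc finger transcription factors of undifferentiated spermatogonia. Id4 encodes an inhibitor of basic helix-loop-helix factors that marks stem cells, and Etv5 encodes an ETS factor induced by GDNF signalling. Foxo1 encodes a forkhead factor of stem cell maintenance, and Nanos2, Nanos3, Lin28a and Dazl encode RNA-binding proteins. Rhox13 encodes an X-linked homeobox protein of the germ line. Sall4, Lin28a, Nanos2, Nanos3, Dazl and Rhox13 are known in the testis for expression in germ cells, while Etv5, Foxo1, Id4 and Zbtb16 are also expressed in somatic cells, Etv5 in Sertoli cells among them.

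Total counts per sample ranged from 17477268 to 17705347 at day 7, and in adult testis from 15431912 to 16574144. The targeted gene, Rnf20, had FPKM (fragments per kilobase of transcript, scaled to library size) of 16.64 and 16.01 in day 7 controls against 10.25 and 12.58 in day 7 knockouts, and did not pass the test (adjusted p = 0.222, edgeR's quasi-likelihood test). In adult testis Rnf20 stood at 4.89, 3.32 and 4.09 in the samples labelled WT and at 9.16, 5.76 and 9.85 in those labelled knockout (adjusted p = 0.688), so Rnf20 by itself does not check the adult labels. The spermatid gene Prm1, which encodes a protamine of sperm chromatin, had FPKM values from 52396 to 89250 in the samples labelled WT and of 0.00, 14.50 and 1.30 in those labelled knockout. Rnf40, which encodes the partner of RNF20, had a log2 fold change of 0.07 at day 7 (adjusted p = 0.719) and fell by 1.92 in adult testis (adjusted p = 4.56e-05, edgeR). At day 7 the Sertoli cell genes Sox9, Wt1 and Gata4 were present in every sample, and so was the germ cell gene Ddx4, with FPKM values of 5.48 and 6.93 in controls and 3.70 and 4.12 in knockouts. One adult knockout library, the first, stood apart from its group. Its summed FPKM over 8 general germ cell genes was 6.80, against 192 and 295 in the other knockouts and 2568 to 2808 in controls. Gtsf1 was the 1 gene of those 8 at 0 counts in it. The Sertoli cell gene Sox9 was also low in that library, with an FPKM of 1.20 against 9.86 and 12.65 in the other knockouts. At day 7 the first knockout sample was the farther from the controls, with a chi-square per degree of freedom of 57.3 and 55.6 against them, where the second had 22.5 and 20.7. Fitted changes of the regulators that moved by over 1.5 times without either library are given with and without it.

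**Figure D1:**
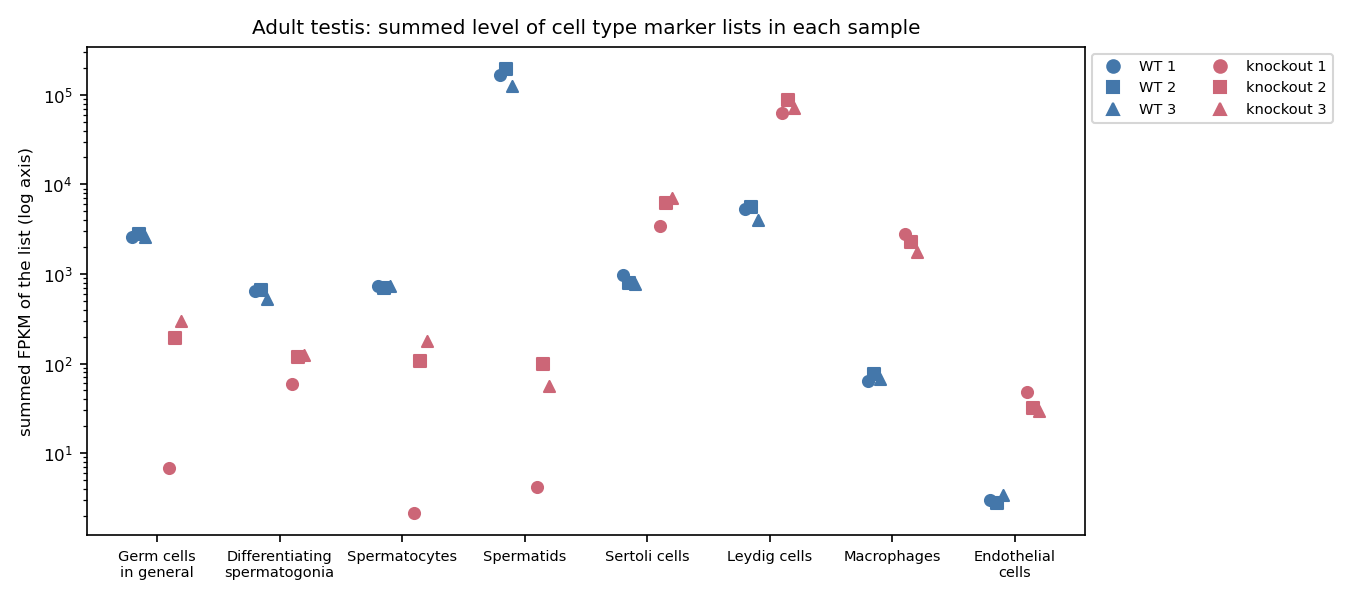
Summed FPKM of 8 marker lists in each adult testis sample on a log axis, with blue points for WT, red points for knockout and the shape of a point giving the replicate. The germ cell, spermatocyte and spermatid lists were below every control in all 3 knockouts and lowest in the first (6.80, 2.15 and 4.15), while the Leydig cell, macrophage and endothelial cell lists were above every control.

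The promoters of 4 of the regulators are shown because these genes show the different patterns found across the adult samples. Each sequence runs from 250 bases before to 50 bases after the RefSeq start on GRCm38.p6, 5' to 3' on the strand of the gene, and the capitals mark each CpG dinucleotide. RefSeq promoter entries matched 8 of the 10 regulators, without Zbtb16 and Sall4. Dazl and Rhox13 come first, both nearly absent from the first adult knockout, and Id4 and Foxo1 follow, which lay below and above every control in all 3 adult knockouts.
Dazl (chr17:50293571-50293870, minus strand): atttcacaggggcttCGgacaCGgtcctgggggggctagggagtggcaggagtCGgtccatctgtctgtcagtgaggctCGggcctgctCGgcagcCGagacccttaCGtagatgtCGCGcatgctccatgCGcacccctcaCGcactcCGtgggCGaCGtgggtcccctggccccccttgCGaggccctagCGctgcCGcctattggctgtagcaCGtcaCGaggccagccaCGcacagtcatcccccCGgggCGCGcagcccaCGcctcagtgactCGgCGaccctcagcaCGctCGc
Rhox13 (chrX:38120590-38120889, plus strand): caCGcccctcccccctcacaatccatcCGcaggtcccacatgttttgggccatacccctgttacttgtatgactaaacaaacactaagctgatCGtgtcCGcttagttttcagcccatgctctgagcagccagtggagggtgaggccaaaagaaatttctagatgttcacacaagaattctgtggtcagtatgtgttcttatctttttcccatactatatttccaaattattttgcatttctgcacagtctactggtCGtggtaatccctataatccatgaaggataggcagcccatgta
Id4 (chr13:48260866-48261165, plus strand): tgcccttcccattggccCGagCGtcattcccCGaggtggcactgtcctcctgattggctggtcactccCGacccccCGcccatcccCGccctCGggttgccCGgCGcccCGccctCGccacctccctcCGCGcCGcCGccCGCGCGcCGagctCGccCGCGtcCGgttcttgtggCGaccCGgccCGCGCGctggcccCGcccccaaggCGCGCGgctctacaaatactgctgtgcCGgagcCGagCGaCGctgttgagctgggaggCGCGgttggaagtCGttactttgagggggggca
Foxo1 (chr3:52268087-52268386, plus strand): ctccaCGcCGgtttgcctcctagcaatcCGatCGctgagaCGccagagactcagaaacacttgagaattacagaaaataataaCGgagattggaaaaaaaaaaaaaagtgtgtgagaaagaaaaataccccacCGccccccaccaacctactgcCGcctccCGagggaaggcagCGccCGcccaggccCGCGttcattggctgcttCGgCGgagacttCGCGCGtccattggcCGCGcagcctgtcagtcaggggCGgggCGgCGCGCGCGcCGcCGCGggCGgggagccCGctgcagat

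The Dazl promoter holds 28 CpG dinucleotides and that of Rhox13 holds 5, where the median over 32851 promoter entries is 7. Id4 and Foxo1 have 39 and 31, more than 95.6% and 89.4% of the entries. The GC box GGGCGG, searched on both strands, was found 5 times in each of these last promoters, 3 times in the first promoter of Etv5 and once each for Lin28a and Nanos3. It was not found for Dazl, Rhox13, Nanos2 or the second promoter of Etv5, and 35.7% of all entries hold it. The promoter of Nanos2 has 0 CpG dinucleotides and holds the letters TATAAA once, on the strand opposite to the gene, and 13.6% of the entries hold them on either strand. These matches describe letters in this window and no binding was measured.

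In the day 7 Sertoli cells, most of the 10 regulators had lower values in the knockouts, and none passed the test. Dazl, which encodes an RNA-binding protein needed for germ cells to enter the spermatogenic program (Entrez 13164, chromosome 17, 50279393 to 50293620), showed the clearest separation. Dazl reached an FPKM of 14.21 and 15.89 in the controls, against 7.69 and 8.67 in the knockouts. Both knockouts lay well below both controls. The fitted log2 fold change of Dazl was -0.83 (standard error, SE, of 0.12, unadjusted p = 0.00127, adjusted p = 0.132, edgeR's quasi-likelihood test, n = 2 per group). DESeq2 gave the same -0.83 with an adjusted p of 0.00101, and over the 9 fits with all samples the adjusted p of Dazl ran from 0.00101 to 0.27. Rhox13 (Entrez 73614, chromosome X, 38120840 to 38129966) was measured at an FPKM of 1.34 and 1.52 in controls and of 0.52 and 0.75 in knockouts. Its groups did not overlap, on 49 counts in the controls and 22 in the knockouts. The log2 fold change of Rhox13 was -1.11 (SE 0.35, adjusted p = 0.276, edgeR). An lncRNA gene, Gm39506, overlaps Rhox13, and how reads were assigned by strand is not given in the sources used here.

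Of the 10 regulators, 9 passed the filter on low values at day 7, and 0 of them passed an adjusted p of 0.05, as was so for 0% of the 12880 genes tested (edgeR). At an unadjusted p under 0.05 there were 4, Foxo1, Dazl, Rhox13 and Zbtb16, the last of which passed the filter through the controls alone and so had to be lower, where 15.5% of all genes tested reach that level. DESeq2 called 1 regulator, Dazl, beside 579 genes in all, and limma called 0 regulators and 0 genes. On scaled counts both knockouts lay below both controls for 7 of the 9, and 26.1% of all genes tested did the same. Id4 was the 1 regulator with both knockouts above both controls, which 24.8% of all genes showed, and Nanos3 overlapped. The median log2 fold change of the 9 was -0.54, beside -0.00 over all genes tested. Without the first knockout sample the median was -0.35 and 2 regulators passed as lower, Foxo1 and Dazl, beside 11.7% of all genes tested. Without the second knockout sample 7 passed as lower, which left Id4 and Nanos3, beside 18.8% of all genes, and without either control no regulator and 0% of all genes did. With 1 sample left in a group, that sample is taken to vary like the other group, whose controls here were nearly alike.

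Zbtb16 (Entrez 235320, chromosome 9, 48651797 to 48836225) was low in these cultures, with FPKM values of 0.64 and 0.68 in controls and 0.40 and 0.47 in knockouts. It passed the filter through the controls alone, in which it was higher. Its log2 fold change was -0.57 (SE 0.21, adjusted p = 0.312, edgeR). Sall4 (Entrez 99377, chromosome 2, 168748332 to 168767201) was at an FPKM of 1.10 and 1.65 in controls and 0.80 and 0.98 in knockouts, and Lin28a (Entrez 83557, chromosome 4, 134003330 to 134019196) had 1.26 and 1.37 against 0.57 and 1.01. SALL4 is a partner of PLZF in spermatogonia, and LIN28A blocks the maturation of let-7 microRNAs. Both knockouts lay below both controls for each gene, and neither passed the test, with log2 fold changes of -0.54 for Sall4 and -0.70 for Lin28a (adjusted p = 0.386 and 0.397, edgeR). Without the first knockout sample these were -0.34 and -0.35, and without the second -0.77 and -1.16.

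Etv5 (Entrez 104156, chromosome 16, 22381313 to 22439570) was among the more abundant regulators in the cultures, at FPKM values of 13.00 and 12.99 in controls and 9.01 and 11.55 in knockouts. The controls were nearly identical and the knockouts were both lower, with a log2 fold change of -0.30 (SE 0.14, adjusted p = 0.392, edgeR), -0.14 without the first knockout sample and -0.49 without the second. Foxo1 (Entrez 56458, chromosome 3, 52268337 to 52350109) was found at an FPKM of 4.61 and 4.92 in controls and 3.35 and 3.57 in knockouts. That difference, -0.42 on the log2 scale (SE 0.11, adjusted p = 0.222), was the second smallest in unadjusted p among the 9 tested at 0.0141. The stem cell marker Id4 (Entrez 15904, chromosome 13, 48261116 to 48266028) went the other way, with 0.52 and 0.45 FPKM in controls and 0.60 and 0.63 in knockouts. Its difference of 0.38 had an SE of 0.25 (adjusted p = 0.53, edgeR). Nanos3 (Entrez 244551, chromosome 8, 84173733 to 84176552) rested on 3 and 12 counts in the knockouts and 8 and 10 in the controls, so its groups overlapped, with a log2 fold change of -0.23 (SE 0.71) that was 0.43 without the first knockout sample and -1.50 without the second. Nanos2, which maintains stem cells by repressing bound RNAs (Entrez 378430, chromosome 7, 18987524 to 18988962), did not pass the filter. It had 8 and 4 counts in the controls and 0 and 1 in the knockouts, a ratio of 0.0832 with a 95% exact counting interval of 0.00195 to 0.562. That interval covers counting error in these libraries and not the spread between mice.

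**Figure D2:**
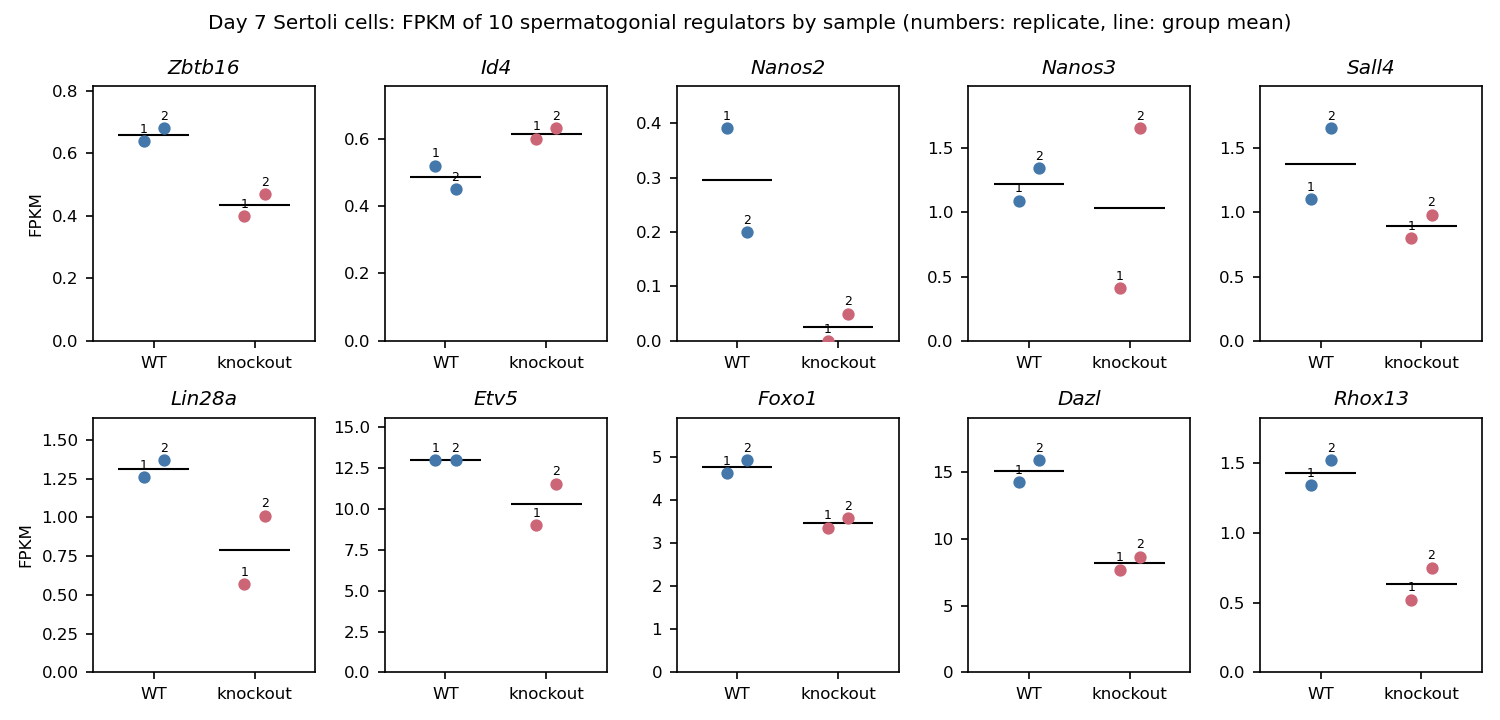
FPKM of each regulator in the day 7 Sertoli cells, with 1 point per sample, the replicate number beside it, a line at the group mean and each panel starting at 0. The knockouts of Dazl (7.69 and 8.67) sit below its controls (14.21 and 15.89), while Id4 is the gene whose knockouts sit above and Nanos3 overlaps.

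Marker lists of other cells also differed between the groups in the same samples, and none of their genes passed the test (edgeR). The 8 general germ cell genes summed to 30.5 and 34.1 FPKM in the controls and 18.1 and 27.2 in the knockouts, with 4 of the 7 tested not overlapping and lower, beside 26.1% of all genes tested. Ddx4 was among them. The median log2 fold change of these germ cell genes was -0.53, and -0.12 without the first knockout sample. The 16 Sertoli cell genes summed to 1783 and 1957 in controls and 999 and 1460 in knockouts, with 11 of 16 lower without overlap. The 7 peritubular myoid genes summed to 2118 and 2248 in controls and 3822 and 3901 in knockouts, and all 7 were higher without overlap, beside 24.8% of all genes tested. The part of these shifts in the values of the regulators was not tested, and in bulk RNA fewer cells of a type and less RNA per cell cannot be told apart.

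In adult testis the regulators other than Nanos2 were high in every knockout, low in every knockout or nearly vanished from 1 knockout library. These kinds overlap, since Nanos3 was low in every knockout and had 0 counts in the first. Foxo1 was the clearest of the first kind. The controls had Foxo1 at an FPKM of 0.82, 0.61 and 1.03, and the knockouts at 7.06, 6.60 and 7.17. Every knockout lay above every control, and the first knockout lay between the other two. The fitted log2 fold change of Foxo1 was 2.23 (SE 0.20, adjusted p = 0.000143, edgeR's quasi-likelihood test, n = 3 per group), a 4.69-fold rise. Fitted folds use TMM scaling and are smaller than the ratios of FPKM for these genes, since with total counts the median of all genes lies at 0.87 on the log2 scale and not near 0. Zbtb16 had FPKM values of 0.20, 0.31 and 0.28 in the controls, where the knockouts had 1.78, 2.83 and 2.09. These groups were far apart, and Zbtb16 rose by 2.22 on the log2 scale (SE 0.29, adjusted p = 0.000596), although it passed the filter through the knockouts alone and so had to differ. Gm32280 overlaps Zbtb16 in the RefSeq annotation. Etv5 went from 2.94, 2.47 and 2.35 FPKM in controls to 12.01, 14.75 and 13.00 in knockouts. It rose by 1.50 (SE 0.15, adjusted p = 0.000177), and no control came near a knockout.

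Id4 and Nanos3 fell. Id4 had FPKM values of 10.53, 10.78 and 12.35 in the controls, where the knockouts had 1.56, 5.73 and 6.38. All knockouts were below all controls, and the first was lowest by far. The log2 fold change of Id4 was -2.18 (SE 0.48, adjusted p = 0.00549, edgeR), and -1.65 without the first knockout. The lncRNA gene A330033J07Rik overlaps Id4. Nanos3 held 9, 8 and 13 counts in the controls and 0, 3 and 4 in the knockouts. The change of -2.83 (SE 0.72, adjusted p = 0.0106, edgeR) thus rests on 30 counts against 7, and it was -2.17 without the first knockout.

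Dazl, Rhox13, Lin28a and Sall4 did not show a change that passed the test, and their knockouts differed widely among themselves. The controls held Dazl at an FPKM of 42.60, 30.87 and 36.74, and the knockouts at 0.51, 20.97 and 39.84. In FPKM the first knockout held 1.39% of the mean control level, the second 57.1% and the third 108%, and after TMM scaling these shares were 0.813%, 31.5% and 57%. The log2 fold change of Dazl was -1.75 with an SE of 1.15 (adjusted p = 0.201, edgeR). Without the first knockout it was -1.05 and passed (adjusted p = 0.00197), and over the fits with each sample left out the adjusted p ran from 0.00197 to 0.319. Rhox13 had 48, 67 and 51 counts in the controls and 0, 49 and 91 in the knockouts. Its level was thus spread more widely among the knockouts than between the groups, with a log2 fold change of -1.09 (SE 1.12, adjusted p = 0.396), which was -0.38 without the first knockout and -1.86 without the third. Lin28a had 27 counts in each control and 3, 28 and 48 in the knockouts. Its fitted change was -0.87 (SE 0.77, adjusted p = 0.331). It was -0.22 without the first knockout and -1.48 without the third, and it turned to 0.02 with total-count scaling.

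Sall4 did not pass the filter on low values in adult testis, with 18, 18 and 14 counts in the controls and 0, 19 and 39 in the knockouts. Fitted without that filter its log2 fold change was -0.59 (adjusted p = 0.636, edgeR). Sall4 overlaps the lncRNA gene Gm14261. Nanos2 was at or near the floor in adult testis, with 1 count in the third control and 0 in every other sample, so no fold is given. In the first knockout 4 of the 10 regulators had 0 counts, Nanos2, Nanos3, Sall4 and Rhox13, which allows up to 0.189 CPM (counts scaled to the size of the library) for each at that depth. In the other knockouts Nanos2 alone was at 0. The library with the fewest counts of these regulators was also the one with the lowest germ cell, spermatocyte and spermatid lists. The part of that loss in the single values was not tested.

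**Figure D3:**
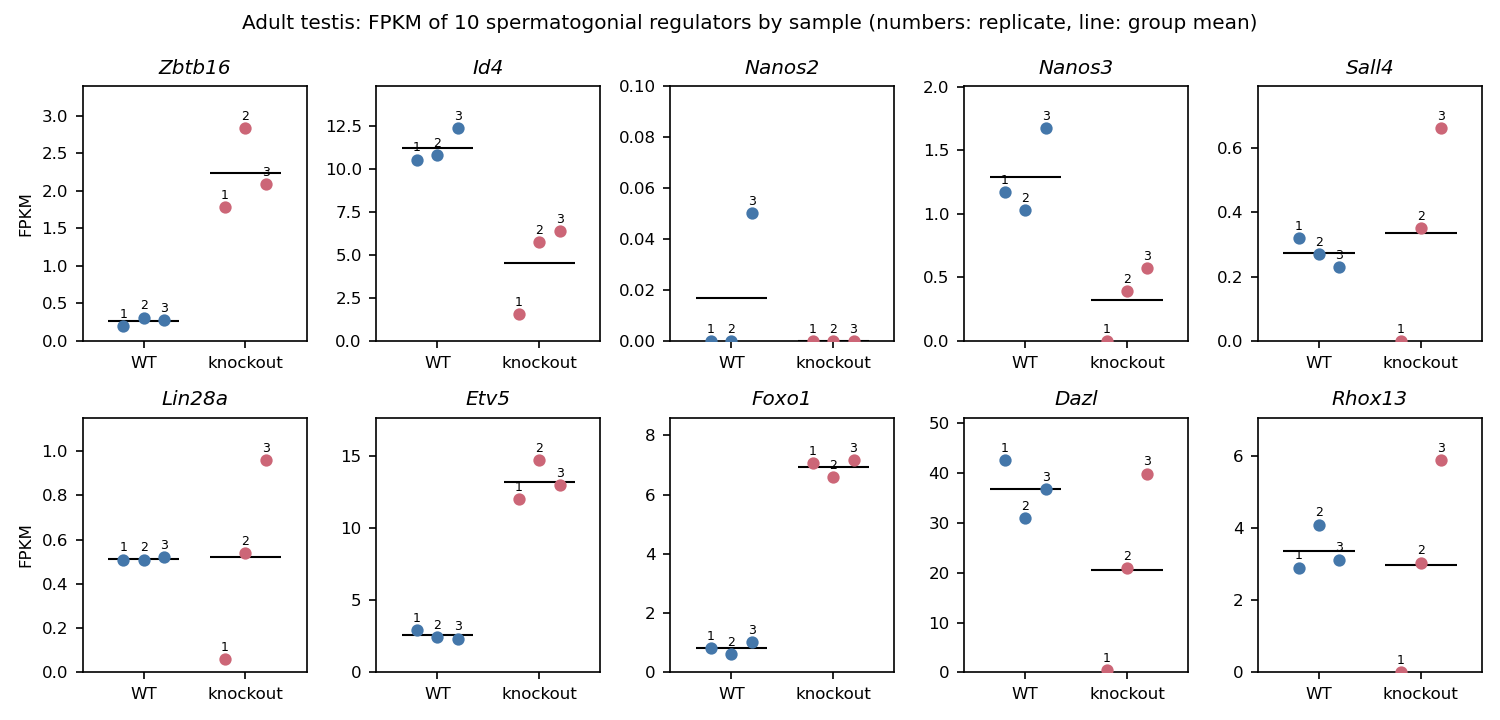
FPKM of each regulator in adult testis, with 1 point per sample, the replicate number beside it, a line at the group mean and each panel starting at 0. Foxo1, Etv5 and Zbtb16 are high in all 3 knockouts, while Dazl, Rhox13, Lin28a and Sall4 lie near 0 in the first knockout and highest among the knockouts in the third (39.84, 5.89, 0.96 and 0.66).

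In all, 3 of the 8 regulators tested rose and 2 fell at an adjusted p under 0.05 (edgeR), counting Zbtb16, whose rise the filter fixed, where 40.9% of the 15919 genes tested rose and 40.6% fell. The 3 that rose also passed the stricter definition of the study, an absolute log2 fold change over 1 with an adjusted p under 0.001, as did 46.7% of all genes. Zbtb16, Etv5 and Foxo1 all lost that limit with the replicate block (adjusted p = 0.00263, 0.00253 and 0.00212, edgeR), under which 0 genes passed it. Without the first control they lost it as well (adjusted p = 0.00292, 0.00109 and 0.00149, edgeR), where 3132 genes passed it. Among the fits with 1 sample left out, Zbtb16 and Etv5 kept it only in the fit without the first knockout. Foxo1 also lost it without the second knockout (adjusted p = 0.00106, edgeR). On scaled counts 3 were above every control in all knockouts, beside 42.4% of all genes, and 3 were below, Id4, Nanos3 and Dazl, beside 43.1%. Without the first knockout 6 of the 8 passed, with 3 higher and 3 lower, beside 45.3% and 41.1% of all genes. Total-count scaling moved the median of all genes to 0.87, and median-ratio scaling moved it to -0.19, from 0.01 under TMM. The rises of Foxo1, Zbtb16 and Etv5 and the falls of Id4 and Nanos3 kept their direction and their call under all 3. Of the 15919 genes tested, 13390 passed with total counts and 12913 with median ratios, in either direction. With total counts the rises became 3.08 for Foxo1, 3.08 for Zbtb16 and 2.36 for Etv5, and the falls became -1.30 for Id4 and -1.99 for Nanos3 (adjusted p = 0.0459 and 0.0461, edgeR).

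**Figure D4:**
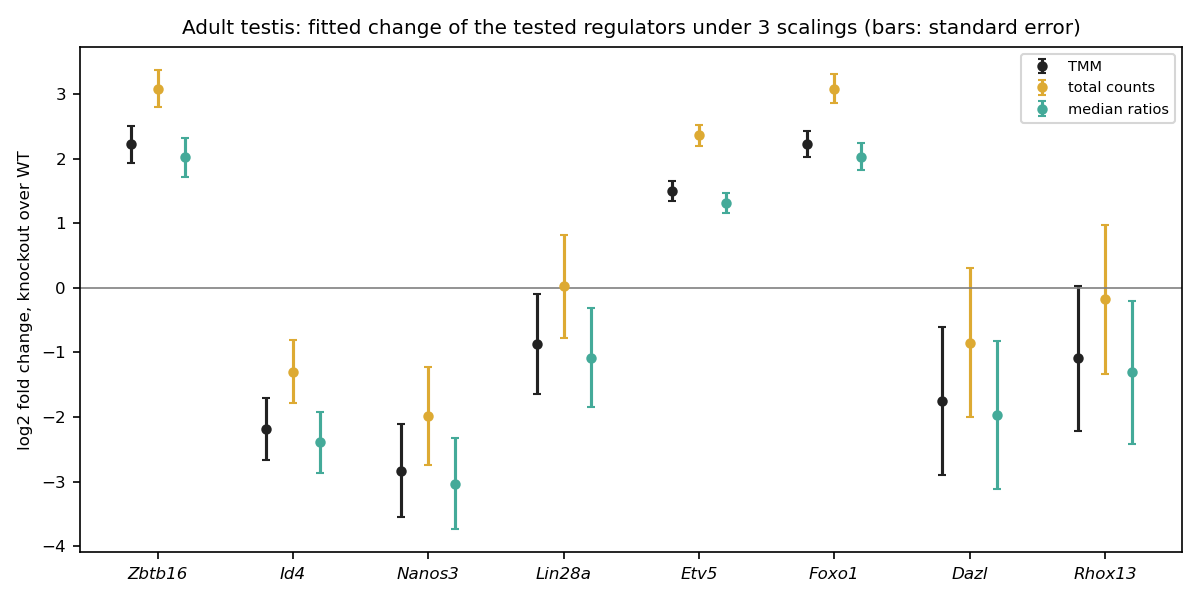
Fitted log2 fold change of the 8 regulators tested in adult testis, knockout over WT, under TMM, total-count and median-ratio scaling, with bars of 1 standard error. Zbtb16, Etv5 and Foxo1 lie above 0 and Id4 and Nanos3 below 0 under each, while Lin28a moves from -0.87 to 0.02 with total counts.

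Since the marker lists of other cells differed between the adult groups, each regulator was also set against 16 Sertoli cell genes within its own sample, as log2(FPKM + 0.1) minus their mean. On this scale Foxo1, Zbtb16 and Etv5 no longer separated the adult groups, with differences of 0.86, 0.57 and 0.22 (exact two-sided permutation test, p = 0.2, 0.4 and 0.8). The overlaps of Foxo1 and Zbtb16 rest on single samples, since both were above every control without the third knockout, at 1.18 and 0.94, and Foxo1 was so without the third control, at 1.04. Without the first knockout the differences of Foxo1, Zbtb16 and Etv5 were 0.34, 0.21 and -0.22. Dazl, Rhox13, Id4, Nanos3, Lin28a and Sall4 were lower in every knockout than in every control, as were 51.5% of all genes tested, while 16.3% were higher. The difference was -4.29 for Dazl, -3.61 for Id4 and -3.58 for Rhox13, the last of which was -2.27 without the first knockout. It was -4.19 for Nanos3, -2.46 for Lin28a and -2.29 for Sall4. Each of these 6 had p = 0.1 in the exact permutation test, the smallest that 3 samples against 3 allow, and 0.15 after adjustment over the 9 genes. Where a sample had 0 counts, its ratio is set by the pseudocount, as for Nanos3, Sall4 and Rhox13 at -7.59 in the first knockout. Id4 was the gene of the 6 whose knockouts lay closest together, at -3.54, -3.08 and -3.27 against 0.03, 0.41 and 0.49 in the controls. Of the Sertoli cell genes themselves 9 of 16 rose and 1, Rhox5, fell in the adult knockouts, beside 40.9% and 40.6% of all genes tested. The ratio thus moves with the Sertoli cell genes too. With total counts the median of all genes lay at 0.87 and 13390 of the 15919 genes tested passed in either direction. There 14 of the 16 rose. Without the first knockout 15 did, beside 45.3% of all genes.

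At day 7 the same ratio separated Id4, at a difference of 0.95, and Nanos2 and Rhox13, at -0.99 and -0.42, each with p = 0.33 in the exact permutation test, the smallest that 2 against 2 allow. On this scale 63.2% of all genes tested were higher and 2.34% lower without overlap. A pseudocount of 1 turned the differences of Nanos2 and Rhox13 to 0.32 and 0.08. Without the first knockout sample the difference was 0.54 for Id4, 0.05 for Etv5 and -0.63 for Rhox13, and without the second it was 1.35, 0.57 and -0.21. Rhox13 was at -0.25 without the second control. The fall of Dazl was -0.22 on this scale and its groups overlapped (exact permutation p = 0.667). Foxo1, Zbtb16 and Etv5 had differences of 0.21, 0.15 and 0.31. Zbtb16, Sall4, Lin28a, Etv5, Foxo1 and Dazl, each below both controls in FPKM, had overlapping groups once set against Sertoli cell genes. The differences of Zbtb16, Nanos3, Sall4, Lin28a, Foxo1 and Dazl changed sign when single samples were left out.

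**Figure D5:**
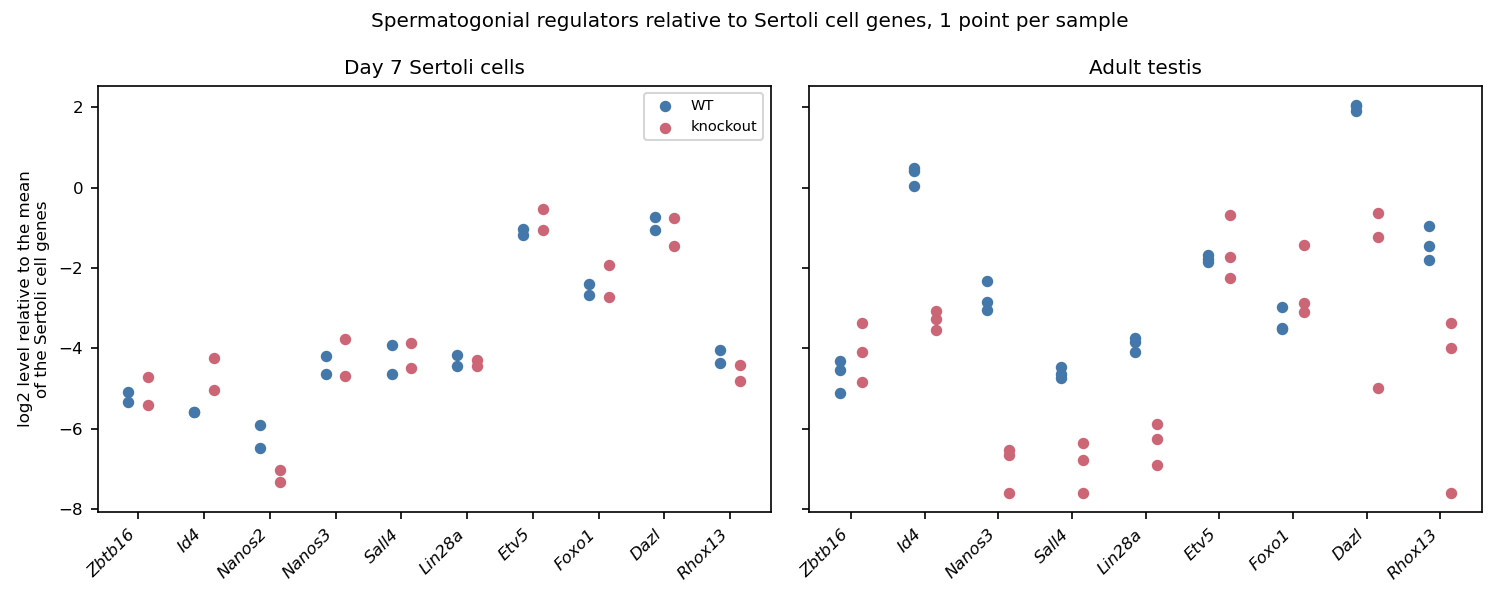
Log2 level of each regulator relative to the mean of 16 Sertoli cell genes, with 1 point per sample, blue for WT and red for knockout, for the day 7 cells on the left and adult testis on the right. In adult testis the knockouts of Id4, Nanos3, Sall4, Lin28a, Dazl and Rhox13 sit below their controls and those of Zbtb16, Etv5 and Foxo1 overlap them, while at day 7 most groups overlap.

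The order of the regulators by FPKM, which is scaled by gene length, differed between the tables. In day 7 controls Dazl was highest at 15.1 ± 1.19 (SD, n = 2), followed by Etv5 at 13.0 and Foxo1 at 4.77 ± 0.219, and none of these overlapped its neighbour. Rhox13, Sall4, Lin28a and Nanos3 came next, between 1.43 and 1.22, with values that overlapped from one to the next, and Zbtb16, Id4 and Nanos2 were lowest. In day 7 knockouts Etv5 stood above Dazl. In adult controls Dazl led at 36.7 ± 5.87 (SD, n = 3), Id4 followed at 11.2 ± 0.987 and Rhox13 at 3.38 ± 0.637, which overlapped Etv5 at 2.59 ± 0.312. Zbtb16 and Sall4, at 0.263 and 0.273, did not differ beyond their spread. In adult knockouts Dazl spanned 0.51 to 39.84 and could not be ordered against Etv5, at 13.3 ± 1.39, while Foxo1 at 6.94 ± 0.302 was clear of its neighbours. The tables were made separately, so levels are not compared between them.

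For the pattern over the 6 adult samples, the gene most like Dazl was Gm364, with Pearson's r = 0.9999 on log2 CPM among 15911 other genes. The nearest to Lin28a was Clspn (r = 0.9992) and the nearest to Rhox13 was Cadm1 (r = 0.9996). These correlations describe 6 samples that share the contrast between the groups. Over 0.95 there were 499 genes for Dazl, 317 for Lin28a and 281 for Rhox13, against 3852 for Foxo1 and 3835 for Etv5.

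Of 23 other genes of undifferentiated spermatogonia, 16 could be tested in adult testis, and 7 rose, 3 fell and 6 did not pass, beside 40.9% and 40.6% of all genes tested that rose and fell (median log2 fold change 0.46, beside 0.01 over all genes). Of the 7, Thy1, Cdh1 and Egr2 passed the filter through the knockouts alone and so had to rise. Tspan8, a tetraspanin of the cell surface, rose most, by 4.53 (SE 0.26, adjusted p = 3.8e-05, edgeR). Lhx1, a homeobox gene that passed the filter through the controls alone, fell by 6.99 and Egr3, an immediate early gene, fell by 4.93. Gfra1, the GDNF co-receptor of stem cells, fell by 1.76 (SE 0.30, adjusted p = 0.00181), and fell by 0.92 with total counts (adjusted p = 0.0307), with FPKM values of 2.52, 1.45 and 2.21 in controls and 1.27, 0.78 and 1.21 in knockouts. Its first knockout was no lower than the others, unlike those of Dazl or Sall4. Taf4b followed the depleted library, at 1.76 in the first knockout against 5.27 and 7.90 in the others, and did not pass (log2 fold change -0.21, adjusted p = 0.692, and 0.68 with total counts). Under total-count and median-ratio scaling 7 genes of the list rose and 3 fell as well. In those fits 13390 and 12913 of the 15919 genes tested passed in either direction. Without the first knockout 8 genes of the list rose and 4 fell, beside 45.3% and 41.1% of all genes. Pou3f1 and Shisa6 were not tested. Their FPKM in the first knockout was 0.25 and 0.31, below the other knockouts and above every control. At day 7 no gene of this list passed, with 19 tested and 10 lower without overlap, beside 26.1% of all genes tested. Of the 10, Eomes passed the filter through the controls alone and so had to be lower. Among the others were Itga6 at -0.94 (adjusted p = 0.147) and Pou3f1 at -1.02 (adjusted p = 0.221).

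Of 10 genes of differentiating spermatogonia, 8 were tested in adult testis, where 3 rose, 2 fell and 3 did not pass, beside the same 40.9% and 40.6% of all genes. Kit, the receptor of stem cell factor, which Leydig cells also express, rose by 3.51 (adjusted p = 7.58e-05, edgeR). Ccnd2, which encodes cyclin D2, rose by 3.50 (adjusted p = 4.84e-05). Dmrtb1, a transcription factor gene of the entry into meiosis, fell by 5.84 (adjusted p = 0.0166), and Sohlh1 fell by 2.25 (adjusted p = 0.0381), a call lost with total counts (-1.36, adjusted p = 0.166). Stra8, the retinoic acid target required for meiosis, had FPKM values of 10.58, 9.43 and 8.43 in controls and 0.00, 13.11 and 35.86 in knockouts. It was listed at 0 in the same library as Rhox13 and Sall4 and highest in the third knockout, and it did not pass (log2 fold change -0.13, adjusted p = 0.931, and 0.78 with total counts). In the list 3 genes rose and 3 fell without the first knockout, beside 45.3% and 41.1% of all genes. At day 7, 6 of the 7 tested were lower without overlap, beside the same 26.1%, and none passed, such as Stra8 at -0.67 (adjusted p = 0.29).

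The relatives of the regulators in the same gene families behaved unlike the regulators themselves in several cases. In adult testis 8 of the 11 relatives tested rose, 1 fell and 2 did not pass (median 1.89), beside 40.9% and 40.6% of all genes. The counts of calls were the same under total-count and median-ratio scaling. In those fits 13390 and 12913 of the 15919 genes tested passed in either direction. Without the first knockout 2 relatives fell, beside 41.1% of all genes. Id1, Id2 and Id3, the other inhibitors of basic helix-loop-helix factors, rose by 4.45, 2.85 and 4.72 (adjusted p = 0.000503, 0.000546 and 0.000555, edgeR), where Id4 fell. Foxo3, Foxo4 and Foxo6 rose by 1.82, 1.90 and 1.78, in the direction of Foxo1, and Etv1 rose by 1.89 beside Etv5. Sall2 rose by 3.48, from FPKM values of 0.23, 0.09 and 0.07 in controls to 2.94, 2.83 and 2.37 in knockouts, and unlike Sall4 it was not low in the first of these. It passed the filter through the knockouts alone and so had to rise. Nanos1 did not pass (log2 fold change -0.13, adjusted p = 0.848), and Etv4, Sall1 and Sall3 were not tested. Boll, a relative of Dazl that acts in meiosis, fell by 4.40 (adjusted p = 0.00886), from a mean of 67.3 FPKM to values of 0.22, 6.65 and 9.28. Lin28b, with 0.00, 0.60 and 0.94 FPKM in the knockouts, had the same low library as Lin28a and did not pass (log2 fold change -2.28, adjusted p = 0.0923). At day 7 none of 11 relatives passed. Id1, Id2 and Id3 were above both controls there as well, with log2 fold changes of 1.28, 0.82 and 1.30 (adjusted p = 0.199, 0.141 and 0.149, edgeR), and without the first knockout sample 3 relatives passed as higher and 1 as lower, beside 9.74% and 11.7% of all genes.

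The marker lists of other cells were measured in the same adult fits. All 10 spermatid genes fell (median log2 fold change -9.12), and 7 of 10 spermatocyte genes fell and 3 did not pass (median -3.73). Of the 8 general germ cell genes 6 fell (median -3.41). Of all genes tested 40.6% fell. Dnd1, which encodes a germ cell RNA-binding protein, was the 1 general germ cell gene with a value above 0, of 0.23 (adjusted p = 0.356), and it rose by 1.09 with total counts (adjusted p = 0.00481). With total counts the median of all genes lay at 0.87 and 13390 of the 15919 genes tested passed in either direction. There 4 general germ cell genes and 5 spermatocyte genes fell. Without the first knockout 7 and 10 did, beside 41.1% of all genes. All 7 Leydig cell and all 7 macrophage genes rose (medians 3.75 and 4.20), beside 40.9% of all genes tested. Cd163 of the macrophage list passed the filter through the knockouts alone. The summed FPKM of the Leydig cell list was 4019 to 5618 in controls and 63494 to 88130 in knockouts, and that of the macrophage list 64.6 to 77.1 and 1745 to 2800. Foxo1, Zbtb16 and Etv5 moved in the direction of these somatic lists and Id4 and Nanos3 in that of the germ cell lists. The part of the somatic and germ cell lists in these changes was not tested.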

How the data were processed

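RNA-seq values of 10 mouse samples were analysed, 2 per group at day 7 and 3 per group in adult testis. The authors aligned reads with HISAT (to GRCm38.p6) and with Bowtie2 (to reference genes), and RSEM gave the deposited estimated counts, which are not normalized, and the deposited FPKM, scaled by gene length and library size. The deposited TPM, scaled to the same sum in each sample, were not used for a test. Versions, read filters and strand handling are not given in the sources used here. The adult processing is taken from the same labels, and 20 empty columns of that table were not used.

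Estimated counts were rounded and tested with edgeR's quasi-likelihood test (edgeR 4.0.16, R 4.3.3) with TMM scaling and Benjamini-Hochberg adjustment over all genes whose FPKM reached 0.5 in 2 or more (day 7) or 3 or more (adult) samples. The test was tried on simulated data, with 100 genes changed by 1 and 100 by 2 on the log2 scale. At day 7 it recovered 66 and 95 of them, with 9 false calls. With the adult design it recovered 16 and 84, with 10 false calls, so adult changes near 1 could often be missed. The simulated spread followed the trend over all genes, so these shares need not hold for a single gene. A standard error is the log2 fold change over the root of the statistic. Ratios to Sertoli cell genes used log2(FPKM + 0.1) and an exact permutation test. Alternatives were DESeq2 1.42.0, limma 3.58.1 on log2(FPKM + 0.1) and log2(FPKM + 1), other scalings and filters, a replicate block and each sample left out. The regulators and lists were chosen with earlier results of these data known. Named genes are all 10 regulators, Rnf20, Rnf40, up to 3 of the largest called changes of each list, members near 0 or untested, and all relatives. Other named genes, such as Sohlh1, Gfra1, Taf4b, Pou3f1, Stra8, Itga6 and Ddx4, were chosen after their values were seen. Promoters are RefSeq entries on GRCm38.p6, read with pandas 2.3.3 in Python 3.11.15. The labels do not say whether adult samples are separate mice, so p-values measure the spread between these samples, which may be technical.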

Additional observations from a re-analysis of the deposited data

Results flagged for a closer look

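In 4 of the 8 regulators tested in both tables the knockouts lay on one side of all controls at day 7 and on the other side in adult testis, as did 18.3% of the 12378 genes tested in both. For Etv5 the log2 fold change was -0.30 in the day 7 Sertoli cells and 1.50 in adult testis, and for Foxo1 the values were -0.42 and 2.23. Id4 went the opposite way, at 0.38 and -2.18. Zbtb16, the remaining gene, had -0.57 and 2.22, but it passed the filter on low values through the controls alone at day 7 and through the knockouts alone in adult testis, so both of its directions were fixed by the filter. None of the day 7 values passed the test and all 4 adult values did (edgeR's quasi-likelihood test). The difference between the tables was not tested, since they hold different material and were made separately, cultured cells in the one and whole testis in the other. Dixon's test of a single far sample was not run, since groups held 2 or 3 samples.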

How the results depend on the processing

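Of the 5 adult calls, Foxo1, Zbtb16, Etv5, Id4 and Nanos3 kept their direction and call under every alternative in which they were tested. With a mean FPKM of at least 1, Nanos3 and Lin28a were not tested in adult testis, nor Zbtb16 and Id4 at day 7. At day 7, where 0 genes passed, DESeq2 called 579 genes and 1 regulator, and leaving out each sample gave 0 to 5136 genes and 0 to 7 regulators. The adult count past the stricter limits, 7432, lay between 2695 and 10301 with each sample left out. The replicate numbers did not pair the samples, with same-numbered deviations correlated at 0.0349 at day 7 and 0.0178 to 0.0274 in adult testis. With the replicate block 0 adult genes passed the stricter limits, the regulators included. At an adjusted p under 0.05, 12209 of the 15919 adult genes passed with the block, 5 regulators among them. At day 7 it gave 0 genes and 0 regulators at that level. Lin28a in adult testis turned to 0.02 with total counts, and Nanos3 at day 7 lay between -1.50 and 0.43 with each sample left out. Relative to Sertoli cell genes, a pseudocount of 1 turned Nanos2, Lin28a and Rhox13 at day 7 to 0.32, 0.27 and 0.08 and Zbtb16 in adult testis to -0.61. Without Cldn11 and Sox9 in the list, Zbtb16 and Sall4 at day 7 were at -0.01 and -0.06. At day 7 the regulators whose ratio groups did not overlap numbered 3 with all samples, beside 63.2% of all genes higher and 2.34% lower. They numbered 5 to 8 with each sample left out, which leaves 1 sample in a group and for which no share of all genes is given. The cause of these shifts was not tested. With each sample left out, the ratio difference at day 7 ran from -0.19 to 0.49 for Zbtb16, -0.27 to 0.64 for Nanos3, -0.25 to 0.45 for Sall4, -0.19 to 0.08 for Lin28a, -0.19 to 0.60 for Foxo1 and -0.57 to 0.14 for Dazl, and in adult testis from -0.22 to 0.57 for Etv5. Depth limits Nanos2, Nanos3, Sall4, Lin28a and Rhox13, which held at most 110 counts in any sample.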
